A study of Mus musculus with 8 samples.

Results

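Type 1 conventional dendritic cells (cDC1) were picked out of a single-cell RNA sequencing series of mouse kidney by the counts of a few genes. A cell was a member when it had more than 300 genes, fewer than 20000 counts and less than 25% mitochondrial counts, at least 2 counts of Clec9a and Xcr1 together, at most 2 of C1qa, C1qb and C1qc, at most 2 of Fscn1, Ccl22 and Il4i1, and at most 1 of Flt1, Pax5, Themis and Slc12a1. Of 120281 barcodes, 90855 passed the limits on genes, counts and mitochondrial share, and 1876 of these were members. Because the members were chosen by measured counts of these genes, the levels of the genes in the rule are given as a description, with no test.

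The cells came from kidneys of male C57BL/6 mice. Controls had untouched kidneys, and all other mice underwent 30 minutes of ischemia of the left kidney followed by reperfusion (ischemia-reperfusion injury, IRI). Injured mice received entospletinib, an inhibitor of spleen tyrosine kinase (SYK), at 20 mg/kg intraperitoneally 30 minutes before ischemia, or the vehicle DMSO, and kidneys were taken on day 1, 7 or 14. Mice of day 1 had this 1 injection, and entospletinib was given again after the injury in mice kept past day 1. The deposited names of the injured groups without entospletinib do not mention the vehicle, which comes from the study's methods, and the ages of the mice were not given in the sources used here. Each of the 7 conditions was 1 pool of the kidneys of 3 mice. Dead cells were excluded with a dye and leukocytes enriched by light scatter in fluorescence-activated cell sorting, and fixed cells were then spread over 8 sublibraries, each of which holds cells of all conditions. A difference between 2 pools therefore has no replicate check: intervals cover counting error only, and the SD over the 8 sublibraries is technical.

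Members numbered 392 in the control pool, 166, 125 and 516 in the vehicle pools of days 1, 7 and 14, and 216, 261 and 200 in the entospletinib pools of the same days. Their median depth was 4402 counts per cell, with 3977 to 6126.5 counts in 6 of the pools and 1916 counts in the entospletinib pool of day 14, where all cells were shallow (median 933 counts). Members with over 1.5% of ribosomal protein gene counts made up 26.0% of the control pool, 28.3%, 16% and 12.2% of the vehicle pools and 68.1%, 45.6% and 50.5% of the entospletinib pools. The 3 parts of a cell barcode also recur across sublibraries, with 13712 combinations present in at least 2 of them.

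cDC1 are the dendritic cells that develop under the transcription factors IRF8 and BATF3 and the growth factor receptor FLT3. They carry XCR1, the receptor for the chemokine XCL1 of natural killer and CD8 T cells, and CLEC9A, a C-type lectin that binds actin filaments exposed by dead cells and signals through SYK. Their best known task is cross-presentation, the display of peptides from engulfed material on MHC class I to CD8 T cells, and WDFY4 is required for it when the material comes from cells.

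The label was first checked against the levels of marker genes, in CPM, the counts of a gene scaled to the total counts of a population. Clec9a (chr6:129408862-129424763) stood at 932 CPM in the members and 19.2 CPM in the other cells, and Xcr1 (chr9:123852315-123862029) at 227 and 2.35 CPM. Both genes chose the members. The other 2 markers given with the label followed the same order, with Irf8 (chr8:120736358-120756694) at 1221 CPM in members against 126 CPM in the other cells and Flt3 (chr5:147330741-147400489) at 486 against 33.7 CPM. Of the 25 genes with the highest ratio of members to other cells among 5529 genes with at least 200 counts, 2 (Clec9a and Xcr1) were genes of the rule, and 6 of the other 23 belonged to the 23 cDC1 identity genes that the rule did not use. Xcr1, Gcsam, Gpr141b, Snx22 and Septin3 led them, at 96.8, 85.1, 76.1, 55.0 and 53.0 times the level in other cells. Itgae, which encodes the αE integrin CD103, stood at 41.0 times.

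The markers also split the members. Of the 1876 cells, 197 (10.5%, exact binomial interval 9.15 to 11.98%) had at least 3 counts of Siglech, a lectin of plasmacytoid dendritic cells, and these cells had the other plasmacytoid genes at high levels. Tcf4, the defining transcription factor of plasmacytoid dendritic cells, was at 4957 CPM in them and 185 CPM in the other 1679 members, Runx2 at 2972 against 70.7 CPM and Ccr9 at 596 against 97.0 CPM. The genes of cDC1 were low in the same cells: Xcr1 at 22.7 against 252 CPM, Wdfy4 at 841 against 4830 CPM, Naaa at 89.6 against 924 CPM, Batf3 at 8.24 against 75.9 CPM and Tlr3 at 25.8 against 228 CPM. Irf8 was at 1973 against 1130 CPM and Clec9a at 630 against 968 CPM, so that these cells passed the rule on Clec9a. The data thus go against the label for these members, which numbered 57 in the control pool, 29, 10 and 35 in the vehicle pools and 25, 27 and 14 in the entospletinib pools. Results are given for all members, and again without these cells where a call on a list gene or a share changed.

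**Figure D1:**
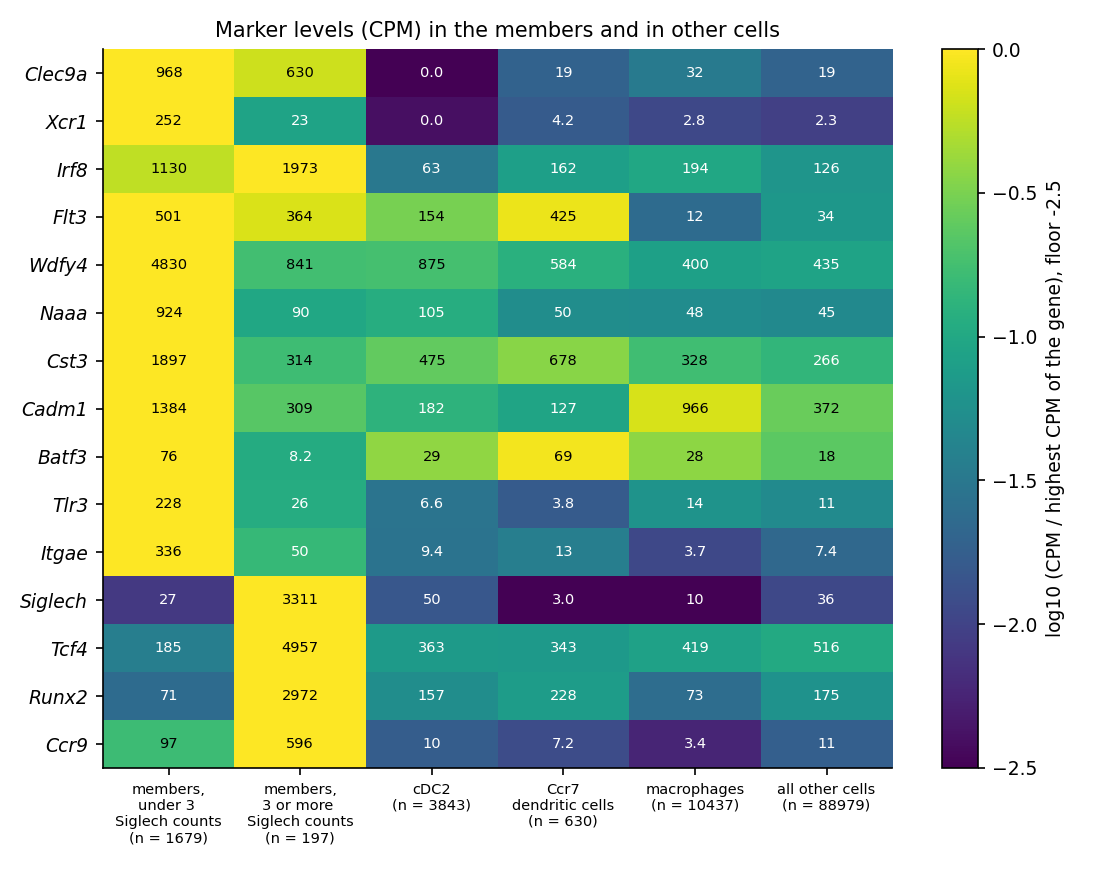
Levels of 15 marker genes (rows, CPM printed in each cell) in members with under 3 and with 3 or more Siglech counts, in cDC2, in Ccr7 dendritic cells, in macrophages and in all cells that are no members, with the number of cells under each column. The colour is scaled within each gene; Wdfy4, Naaa, Tlr3 and Itgae are highest in the 1679 members of the first column, and Siglech, Tcf4, Runx2 and Ccr9 in the 197 of the second.

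Members differed by how they passed the rule. Both Clec9a and Xcr1 were detected in 963 members, Clec9a alone in 889 and Xcr1 alone in 24. In the 963 cells with both genes Naaa stood at 1019 CPM and Siglech at 39.1 CPM, and in the 889 cells with Clec9a alone at 576 and 871 CPM. At the threshold, 430 members had exactly 2 counts of Clec9a and Xcr1, with Wdfy4 at 2506 CPM, and 1339 cells just outside had exactly 1, with Wdfy4 at 1172 CPM. The limits on C1q genes left out 546 cells, those on Flt1, Pax5, Themis and Slc12a1 left out 177 and those on Fscn1, Ccl22 and Il4i1 left out 22 of the 2561 cells with at least 2 Clec9a and Xcr1 counts.

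Markers of other lineages were low but present in the members, and 382 members had at least 3 summed counts of a T cell, B cell, NK cell, neutrophil, endothelial, proximal tubule or macrophage list. The summed level of 6 neutrophil genes followed the level in the rest of each pool. It was 37.3 CPM in control members, 316, 132 and 86.1 CPM in the members of the vehicle pools of days 1, 7 and 14, and 180, 61.6 and 55.9 CPM in those of the entospletinib pools. In the other cells it was 97.9 CPM, then 2828, 767 and 395 CPM, then 2115, 155 and 123 CPM. Monocyte genes without Ccr2, which cDC1 also use, were highest in the vehicle pool of day 1 as well, at 421 CPM in members and 2211 CPM in the other cells, against 61.3 and 690 CPM in the entospletinib pool of that day. None of the genes of these 2 lists was at 0 in the members. The summed level of 7 cDC2 markers (Cd209a, Clec10a, Mgl2, Sirpa, Irf4, Itgam and Cd209d, none of them at 0) was 237 CPM in control members, 259, 190 and 221 CPM in the vehicle pools and 128, 138 and 148 CPM in the entospletinib pools, so that the treatments did not overlap. In cDC2 it was 2438 CPM. At least 3 of these counts were found in 226 members (12.05%), which were 16.8% of the control pool, 24.1%, 13.6% and 12.4% of the vehicle pools and 6.02%, 8.81% and 1.5% of the entospletinib pools, a share that depends on depth. Without these 226 members the level was 65.3 CPM in the control pool, 76.4, 43.5 and 60.9 CPM in the vehicle pools and 74.6, 56.7 and 128 CPM in the entospletinib pools, which overlapped.

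The share of cDC1 among all cells was compared first. It was 3.50% in the control pool (392 of 11205 cells, exact binomial interval 3.17 to 3.86%, SD over sublibraries 0.520). With vehicle it was 0.738% on day 1 (166 of 22489), 2.05% on day 7 (125 of 6110) and 2.99% on day 14 (516 of 17261). With entospletinib it was 1.54% on day 1 (216 of 14041), 3.43% on day 7 (261 of 7605) and 1.65% on day 14 (200 of 12144). The vehicle pools were thus lowest on day 1 and highest on day 14, while the entospletinib pools were highest on day 7. Neither order held under every definition: with cells thinned to 1000 counts the entospletinib pools were highest on day 14 (0.573%, 1.54% and 1.73%), and among dendritic cells the vehicle pools were lowest on day 14.

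**Figure D2:**
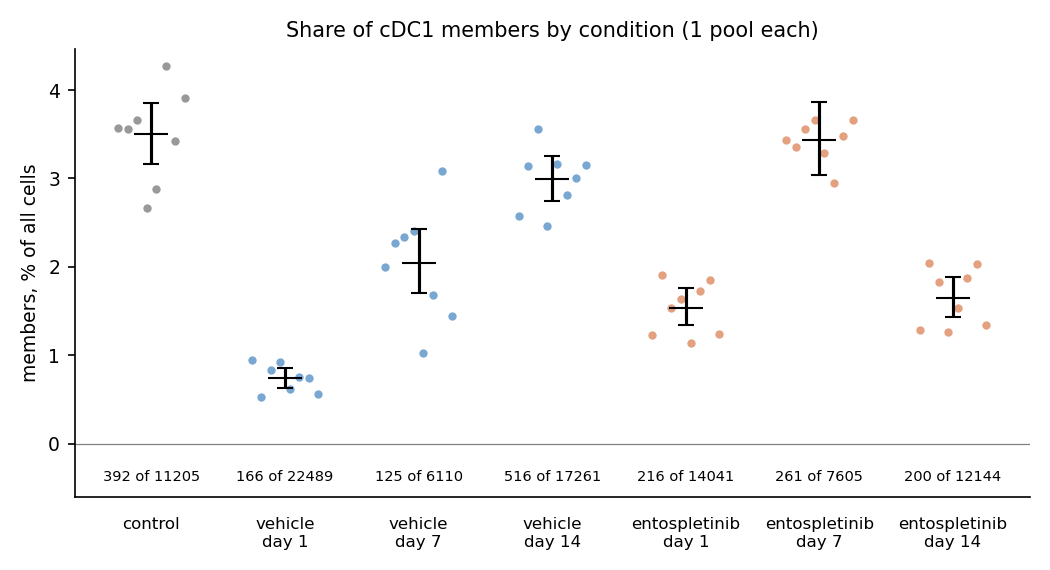
Members as a percentage of all cells in each condition, with 1 point per sublibrary (8 per condition), a bar for the pooled share and its 95% exact binomial interval, and the number of members and cells below. Vehicle day 1 is lowest at 0.738%; entospletinib is above vehicle on days 1 and 7 and below it on day 14.

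Against vehicle, the share with entospletinib was 2.08-fold on day 1 (log2 ratio 1.06, interval 0.76 to 1.36) and 1.68-fold on day 7 (0.75, 0.43 to 1.07). On day 14 the log2 ratio was -0.86 (-1.103 to -0.62). All 8 sublibraries agreed in direction on each day. Over the 3 days the mean log2 ratio was 0.32 with an SD of 1.03, and an exact sign-flip permutation test over days gave p = 0.75, where 0.25 is the smallest p that 3 days allow. Vehicle against control gave log2 ratios of -2.24 (-2.52 to -1.98) on day 1, -0.77 (-1.08 to -0.48) on day 7 and -0.23 (-0.42 to -0.03) on day 14. The last of these moved with the choice of cells, and was 0.094 with both Clec9a and Xcr1 detected, 0.0023 under the ribosomal limit and -0.022 in cells past 1000 counts. Without the members rich in Siglech the ratios to vehicle were 1.16, 0.71 and -0.86. Vehicle over control on day 14 was then -0.10 (-0.31 to 0.10), with 4 of the 8 sublibraries in the direction of the pool.

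A share of all cells depends on every other cell that was sorted. Among dendritic cells, that is cDC1, cDC2 with at least 2 counts of Cd209a, Clec10a and Mgl2, and dendritic cells with at least 4 counts of Fscn1, Ccl22, Il4i1 and Ccr7, the members made up 41.7% in the control pool. This share was 26.0%, 29.1% and 23.8% in the vehicle pools and 30.0%, 33.2% and 30.0% in the entospletinib pools. All 6 injured pools lay below the control, whose interval was 38.5 to 44.9%, and per cDC2 cell there were 0.789 cDC1 in the control pool, 0.376 to 0.472 in the vehicle pools and 0.480 to 0.536 in the entospletinib pools. On this denominator the log2 ratios of entospletinib to vehicle were 0.21 (-0.093 to 0.51), 0.19 (-0.12 to 0.51) and 0.34 (0.093 to 0.57), so that day 14 changed sign. The intervals of days 1 and 7 included 0, and 5, 5 and 6 of the 8 sublibraries had the direction of the pool. The exact sign-flip permutation test gave p = 0.25, the smallest it can give with 3 days.

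The ratio of day 14 also moved with depth. With every cell thinned to 1000 counts and shallower cells left out, 5547 of the 12144 entospletinib cells and 14587 of the 17261 vehicle cells of day 14 remained, and the shares became 1.73% and 1.26%, a log2 ratio of 0.46. In the same cells without thinning the log2 ratio was -0.18. Under the limit of 1.5% ribosomal protein gene counts that the study applied, the ratios were 0.26 (-0.19 to 0.70), 0.23 (-0.14 to 0.61) and -1.35 (-1.68 to -1.04). The intervals of days 1 and 7 then included 0, and 6 of 8 sublibraries had the direction of the pool on each of these days.

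**Figure D3:**
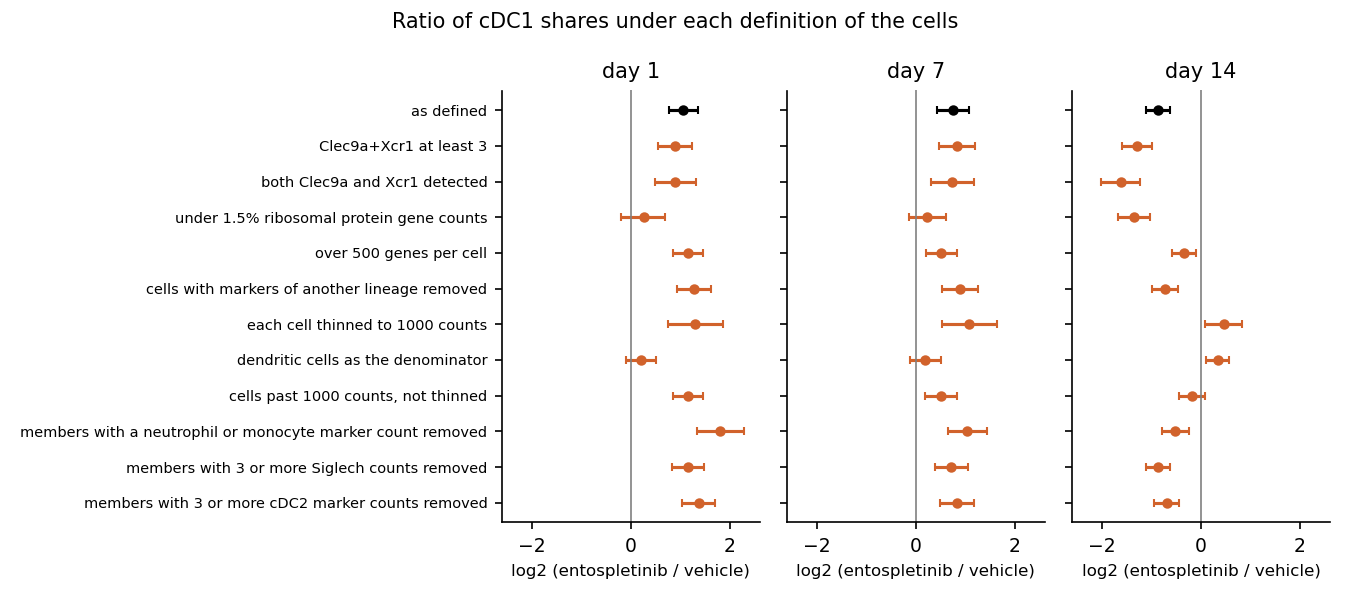
Log2 ratio of the cDC1 share, entospletinib over vehicle, on days 1, 7 and 14 under each definition of members and denominator (rows), with 95% intervals for counting error; black is the definition used in the text. Days 1 and 7 stay above 0 in each row, by 0.19 to 1.81, while day 14 runs from -1.61 to 0.46.

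Levels within the members were then compared. Genes that mark cDC1 differed in how far they varied between pools. Wdfy4, the factor needed for cross-presentation, stood at 3881 CPM in the control pool, 4947, 3967 and 4335 CPM in the vehicle pools and 4765, 4907 and 4644 CPM in the entospletinib pools. Irf8 stood at 1328 CPM in the control pool, at 1372, 963 and 1124 CPM under vehicle and at 1208, 1360 and 987 CPM under entospletinib. Flt3 stood at 392 CPM, then 655, 379 and 485 CPM, then 571, 547 and 386 CPM, so that vehicle and entospletinib pools overlapped for all 3 genes. Clec9a, a gene of the rule, ranged from 751 CPM (vehicle day 7) to 1344 CPM (entospletinib day 14), and Xcr1 from 190 to 262 CPM.

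Itgae had the largest difference from control among the list genes on 1 side of it in all 6 injured pools. It stood at 131 CPM in the control pool (interval 116 to 148), at 372, 396 and 371 CPM in the vehicle pools and at 281, 373 and 323 CPM in the entospletinib pools, 2.14 to 3.02 times the control level. In cDC2 it was at 2.08 CPM in the control pool and 5.64 to 15.3 CPM in the injured pools. Without the members rich in Siglech it stood at 156 CPM in the control pool, and the injured pools were 1.89 to 2.71 times as high. Of 176 list genes with at least 200 counts, 22 were above the control in all 6 injured pools and 12 below it, and of all 5529 genes at that depth 9.89% were above and 8.84% below, so the lists were close to the background. With only 1 control pool these differences were not tested. Below the control were Tlr7, which senses single-stranded RNA and which plasmacytoid cells use (46.1 CPM against 10.9 to 34.9 CPM), and Il15, a cytokine for CD8 T and NK cells (113 against 44.6 to 83.6 CPM). Without the members rich in Siglech, Tlr7 had fewer than 30 counts over the 6 injured pools, too few for the test described next. Its levels in the injured pools thus came mostly from members whose genes go against the cDC1 label. The order of Tlr7 in the remaining members is not given here. Cadm1, an adhesion molecule of cDC1, ran from 951 to 1071 CPM in the vehicle pools and from 1243 to 1569 CPM in the entospletinib pools, with 1564 CPM in the control pool. In the edgeR test described next it was not called (log2 fold 0.36, adjusted p = 0.30). The same test in cDC2 gave it a log2 fold of 0.79 (adjusted p = 0.080).

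The effect of entospletinib across the 3 days was tested with edgeR's quasi-likelihood test on the summed counts of the 6 injured pools, with the day as a block and Benjamini-Hochberg adjustment over all 10030 genes with at least 30 counts. The days take the place of replicates here, so a call rests on a difference fitted over the days in these pools. At an adjusted p under 0.05, 57 genes were higher (0.568%) and 159 were lower (1.59%) with entospletinib. Of these 216 genes, 207 had the same direction on all 3 days. Without day 7 the split was 122 higher and 143 lower, without day 14 it was 20 and 105, and with no day block or with cells thinned to 1000 counts no gene was called, with 912 and 204 at an unadjusted p under 0.05. The lists of cDC1 genes described next were read against these shares and against a median log2 fold of 0.01 over all tested genes. At an unadjusted p under 0.05 there were 1195 of the 10030 genes (11.9%), and the counts at that limit given for the lists are to be read against this share.

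None of the genes of cDC1 identity passed the test (0 of 23 tested, with the rule genes Clec9a and Xcr1 left out; median log2 fold 0.06), with 4 at an unadjusted p under 0.05. The list of cross-presentation and MHC class I genes gave 0 of 22 (median 0.13), with 6 at an unadjusted p under 0.05, all of them fitted higher. Calr, a chaperone of MHC class I loading, had the lowest of these adjusted p-values, at 0.082 with a log2 fold of 0.48 (SE 0.14). Its level was 463 CPM in the control pool, 547, 393 and 504 CPM under vehicle and 797, 567 and 761 CPM under entospletinib, and the treatments did not overlap. MHC class II genes gave 0 of 12 (median 0.03), with none at an unadjusted p under 0.05. H2-Ab1 stood at 1263 CPM in the control pool, 1655, 1340 and 1476 CPM under vehicle and 1857, 1581 and 1298 CPM under entospletinib. Toll-like receptors and nucleic acid sensors gave 0 of 17 with 8 at an unadjusted p under 0.05 (5 fitted lower and 3 higher), interferon response genes 0 of 25 with 4, and cell cycle genes 0 of 30 with 1. Under DESeq2, an alternative count test, 35 genes were called in all, each of them among the 216 and none of them in these lists.

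Immediate early genes, transcription factors and phosphatases induced within minutes of a stimulus, had the most calls of the lists. Of 22 tested, 6 fell (Nr4a3, Nr4a2, Dusp1, Egr1, Egr2 and Egr3) and none rose, with a median log2 fold of -0.41. Nr4a3 (chr4:48045153-48086447), an orphan nuclear receptor, stood at 152 CPM in the control pool, at 225, 199 and 666 CPM in the vehicle pools and at 70.1, 111 and 253 CPM in the entospletinib pools. It was lower with entospletinib on each day, although the day 14 entospletinib pool lay above the day 1 and day 7 vehicle pools. It fell by 1.38 on the log2 scale (SE 0.15, adjusted p = 1.04e-06). Nr4a2 (chr2:57106830-57124003), of the same receptor family, stood at 122 CPM in the control pool, at 240, 135 and 435 CPM under vehicle and at 123, 75.1 and 180 CPM under entospletinib, and fell by 1.104 (SE 0.15, adjusted p = 6.37e-05). Both were highest with vehicle on day 14. The third receptor of the family, Nr4a1, stood at 205 CPM in the control pool, 181, 219 and 406 CPM under vehicle and 161, 155 and 265 CPM under entospletinib and was not called (log2 fold -0.51, adjusted p = 0.086).

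Dusp1, a phosphatase that switches off MAP kinases, stood at 69.0 CPM in the control pool, 98.9, 73.3 and 111 CPM under vehicle and 44.9, 37.1 and 65.6 CPM under entospletinib, with no overlap. Egr1 stood at 20.5 CPM in the control pool, 53.3, 70.7 and 66.7 CPM under vehicle and 39.4, 33.8 and 26.7 CPM under entospletinib, again with no overlap. Fos and Jun, by contrast, had log2 folds of -0.12 and 0.18 and adjusted p-values of 0.84 and 0.71. Hspa1b, a heat shock gene that handling of cells can induce, had a log2 fold of 0.50 (adjusted p = 0.073). In the other cells of the pools Nr4a3 stood at 212, 330 and 580 CPM under vehicle and 93.2, 139 and 149 CPM under entospletinib. Without the members that had any count of 11 neutrophil or monocyte markers (651 of 1876 members, 34.7%, a share that also depends on depth), Nr4a3 and Nr4a2 were still called (log2 folds -1.21 and -1.15). Egr2 and Egr3 were not called there at log2 folds of -1.34 and -0.62 (-1.60 and -0.92 in all members), nor were Dusp1 and Egr1 at -0.42 and -0.29 (-1.03 and -0.97 in all members). Without the members rich in Siglech, Egr2 and Egr3 were not called, with log2 folds of -1.46 and -0.88 close to those in all members and adjusted p-values of 0.099 and 0.076, while Nr4a1 and Zfp36 were. Nr4a3, Dusp1, Egr1 and Egr2 were higher in cDC2 than in the members, at 808, 240, 153 and 67.3 CPM against 299.6, 77.7, 45.5 and 17.2 CPM. Without the 226 members with at least 3 cDC2 marker counts, Nr4a3, Nr4a2 and Dusp1 were called, with log2 folds of -1.23, -1.09 and -0.86. Egr1, Egr2 and Egr3 were not, with log2 folds of -0.33, -1.40 and -0.92 and adjusted p-values of 0.76, 0.28 and 0.104.

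The promoters of the Nr4a2 and Nr4a3 genes are shown because these genes had the lowest adjusted p-values of the list, and a motif of cyclic AMP-responsive promoters is marked in them. The 250 bases before the start of each gene in RefSeq (GRCm38.p6) run 5′ to 3′ on the strand of the gene, at chr2:57124004-57124253 (minus strand) for Nr4a2 and chr4:48045055-48045304 (plus strand) for Nr4a3. The GENCODE M21 start of Nr4a3 given above lies inside this stretch, so that by GENCODE its later part, with 1 of the capital runs, is within the gene. Capitals mark TGACG and its reverse complement CGTCA, the core of the cyclic AMP response element, of which each sequence has 4.
Nr4a2: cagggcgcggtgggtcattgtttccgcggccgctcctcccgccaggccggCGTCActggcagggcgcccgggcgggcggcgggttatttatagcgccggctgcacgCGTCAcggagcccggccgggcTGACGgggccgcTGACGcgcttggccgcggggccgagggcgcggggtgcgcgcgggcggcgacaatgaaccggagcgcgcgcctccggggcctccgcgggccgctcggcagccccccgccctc
Nr4a3: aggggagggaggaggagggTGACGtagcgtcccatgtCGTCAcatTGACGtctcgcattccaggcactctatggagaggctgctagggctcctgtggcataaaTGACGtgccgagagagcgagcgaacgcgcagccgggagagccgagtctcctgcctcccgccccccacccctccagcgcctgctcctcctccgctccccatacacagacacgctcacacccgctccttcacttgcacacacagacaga
This core was present, on either strand, in 17.9% of 27025 promoters of this length and in 11 of the 19 immediate early genes with an entry (57.9%). Of the 4 called genes with an entry Nr4a2, Nr4a3 and Dusp1 held it and Egr2 did not, and 8 of the 15 that were not called held it, Fos and Nr4a1 among them. The full element TGACGTCA, which reads the same on both strands and contains both forms of the core, was in 1.62% of promoters and in those of Btg2 and Dusp1 among the 19. Egr1 and Egr3 had no entry. These are matches of letters, not sites of binding.

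Costimulatory and coinhibitory ligands, which T cells read on a dendritic cell, were fitted lower with entospletinib for 11 of 11 tested genes (median log2 fold -0.39), and 2 of them fell. Cd83 (chr13:43784775-43803132), a surface marker of activated dendritic cells, stood at 525 CPM in the control pool, at 459, 597 and 802 CPM under vehicle and at 299.98, 381 and 552 CPM under entospletinib. It fell by 0.68 (SE 0.14, adjusted p = 0.0062), lower on each of the 3 days. Under the ribosomal limit its log2 fold was -0.71 and the call was lost (adjusted p = 0.079). Cd80, a ligand of CD28, stood at 29.4 CPM in the control pool, 80.5, 74.6 and 79.0 CPM under vehicle and 38.3, 27.0 and 77.8 CPM under entospletinib (log2 fold -0.91, SE 0.23, adjusted p = 0.031). It was at 202 CPM in the other cells, and without the members with a neutrophil or monocyte count its log2 fold was -0.16. Without the members with cDC2 marker counts Cd83 was called (-0.73, adjusted p = 0.011) and Cd80 was not (-0.56, adjusted p = 0.39). Cd86, the second CD28 ligand, stood at 649, 374 and 679 CPM under vehicle and 437, 423 and 462 CPM under entospletinib and was not called (adjusted p = 0.20). Of the coinhibitory genes Cd274, which encodes PD-L1, stood at 20.4, 32.7 and 23.8 CPM under vehicle and 24.1, 11.0 and 14.6 CPM under entospletinib and was not called either (adjusted p = 0.45).

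**Figure D4:**
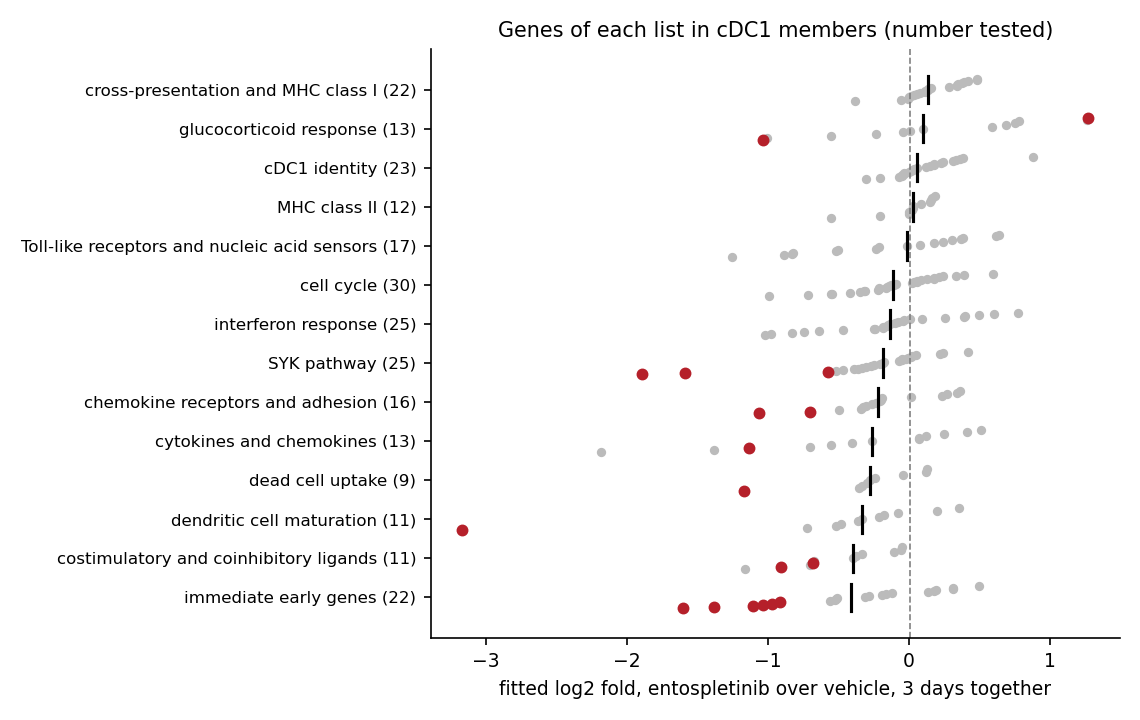
Fitted log2 fold of each tested gene, entospletinib over vehicle over the 3 days, by gene list (rows, number tested in brackets); black bars are list medians, the dashed line is the median of all tested genes (0.01), and red points passed the test. Red points lie to the left of the line in each list that has any, with Fkbp5 of the glucocorticoid list as the exception.

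The pathway of SYK itself was the target of the drug. Of 25 genes tested, 3 fell: Clec7a and Clec4e, C-type lectins of myeloid cells that signal through SYK, and Malt1, a protease downstream of them. Malt1 had a log2 fold of -0.58 (adjusted p = 0.036), and was not called without members with markers of another lineage (-0.58, adjusted p = 0.10), without members with a neutrophil or monocyte count (-0.50, adjusted p = 0.49) or under the ribosomal limit (-0.40, adjusted p = 0.50). Clec7a stood at 28.9 CPM in the control pool, 71.8, 85.1 and 67.1 CPM under vehicle and 27.4, 19.4 and 36.5 CPM under entospletinib, with no overlap (log2 fold -1.59, SE 0.25, adjusted p = 0.00038). Clec4e stood at 2.33 CPM in the control pool, 31.0, 34.0 and 21.4 CPM under vehicle and 10.9, 6.75 and 7.29 CPM under entospletinib. The level of Clec7a in the other cells was 208 CPM and that of Clec4e 221 CPM. After removal of the members with markers of another lineage Clec7a kept a log2 fold of -1.50 (adjusted p = 0.029) and Clec4e had one of -0.11 (adjusted p = 0.98). Without the members with a neutrophil or monocyte count Clec7a had a log2 fold of -1.91 and was not called (adjusted p = 0.059). None of the 3 was called without the members with at least 3 cDC2 marker counts, where Clec7a had a log2 fold of -0.29 (adjusted p = 0.84), Clec4e one of -0.97 (adjusted p = 0.51) and Malt1 one of -0.087 (adjusted p = 0.92). In cDC2 these genes stood at 347, 39.3 and 687 CPM, against 48.3, 15.4 and 127 CPM in the members. Syk, whose kinase activity rather than transcript the drug inhibits, stood at 290 CPM in the control pool, 413, 276 and 276 CPM under vehicle and 247, 214 and 267 CPM under entospletinib (log2 fold -0.47, adjusted p = 0.086). Its log2 fold was -0.24 without markers of another lineage, -0.21 without neutrophil or monocyte counts and -0.26 without cDC2 marker counts (adjusted p = 0.64, 0.84 and 0.61). Without the members rich in Siglech it was -0.49 (adjusted p = 0.079). Syk stood at 586 CPM in the other cells and 799 CPM in cDC2, against 283 CPM in the members.

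Among 13 tested cytokines and chemokines Il1b fell and none rose. Il1b (chr2:129364570-129371139), which encodes interleukin 1β, stood at 232 CPM in the control pool, 767, 533 and 536 CPM under vehicle and 420, 192 and 292 CPM under entospletinib, with no overlap (log2 fold -1.14, SE 0.16, adjusted p = 0.00012). In the other cells it stood at 457 CPM in the control pool, 3740, 2185 and 1624 CPM under vehicle and 2060, 684 and 594 CPM under entospletinib. Without the members with a neutrophil or monocyte count the log2 fold was -0.62 (adjusted p = 0.29), and without those with cDC2 marker counts it was -0.61 (adjusted p = 0.040). Il12b, the subunit of interleukin 12 that primes T cells, stood at 9.70, 30.1 and 9.52 CPM with vehicle, 10.9 CPM under entospletinib on day 1 and had 0 counts on days 7 and 14, where 3 counts would be 2.53 and 7.29 CPM; it was not called (adjusted p = 0.12).

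The remaining lists held 1 or 2 calls each. Itgam and Cd44, of 16 chemokine receptors and adhesion genes, fell by 1.06 and 0.71, and Lrp1, of 9 genes for the uptake of dead cells, fell by 1.17. Without the members with a neutrophil or monocyte count Itgam and Lrp1 had log2 folds of 0.10 and 0.15, and Cd44 had one of -0.45 (adjusted p = 0.58). Without markers of another lineage Cd44 was at -0.56 and not called either (adjusted p = 0.082). Without the members with cDC2 marker counts, a list that holds Itgam, none of the 3 was called (log2 folds 0.0076, -0.41 and -0.31 for Itgam, Cd44 and Lrp1). Itga4, an integrin subunit of the same list, had a log2 fold of -0.50 (adjusted p = 0.061), and was called without the members rich in Siglech (-0.52, adjusted p = 0.033). Mreg, of 11 maturation genes, had 1 to 30 counts in each pool and 32.7 CPM in the vehicle pool of day 7 against 0.97 to 11.9 CPM in the other injured pools.

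Many called genes were scarce in the members. The lowest adjusted p-values were those of Fn1 (fibronectin) and Thbs1 (thrombospondin 1), which fell by 3.06 and 2.16 with adjusted p-values of 6.14e-07 and 7.25e-07. Fn1 stood at 7.92 CPM in the control pool, 135, 83.7 and 25.0 CPM under vehicle and 9.85, 11.0 and 12.2 CPM under entospletinib, while the other cells had 956 CPM at their highest, in the vehicle pool of day 1. Of the 216 called genes, 103 were under 0.5 of their level in the other cells, and 96 of these fell. Of the 68 called genes at or above the level in other cells, 40 rose and 28 fell. The matching shares over all 10030 tested genes were not counted, so these numbers describe the called genes only. Among genes with rising calls and low levels in members were Igfbp5, Igfbp7 and Magi1, genes of endothelial and epithelial cells, at 316, 92.7 and 118 CPM in the other cells and 13.9, 16.7 and 11.1 CPM in the members. When members with any count of a neutrophil or monocyte marker were left out, 11 genes were called, 89 when members with markers of another lineage were, and 66 when members with at least 3 cDC2 marker counts were (24 higher and 42 lower, 61 of them among the 216). The monocyte markers include Fn1, Vcan and F13a1, which were themselves called, so the loss of their calls was built in. Leaving out members with neutrophil or monocyte markers removed 66.9%, 40% and 33.7% of the vehicle members of days 1, 7 and 14. It removed 44.4%, 26.4% and 16% of the entospletinib members and left 55 members in the vehicle pool of day 1. A call lost under this choice thus tests nothing by itself. Without the members with cDC2 marker counts Fn1 and Thbs1 were not called (log2 folds -1.003 and -0.44). The plasmacytoid markers Siglech and Runx2 were called higher there (log2 folds 0.94 and 0.64, adjusted p = 0.016 and 0.046). Tcf4 and Ccr9 were not called there (log2 folds 0.46 and 0.40).

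Genes for ribosomal proteins made up 25 of the 57 that rose, and 97 of 101 tested were fitted higher (median log2 fold 0.46). Rpl12 stood at 130 CPM in the control pool, 135, 78.5 and 102 CPM under vehicle and 204, 187 and 192 CPM under entospletinib. A limit of 1.5% ribosomal protein gene counts selects cells on these same genes and removed more entospletinib than vehicle members, so that lower folds under it were built in and test nothing. Under it the median was 0.10, and Rpl12 had a log2 fold of 0.32 (adjusted p = 0.73) in place of 0.83.

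Fkbp5 (chr17:28399094-28517527), a chaperone that glucocorticoids induce, was the 1 gene that rose of 13 in the glucocorticoid list, in which Dusp1, described above, fell; the list's median log2 fold was 0.10. It stood at 152 CPM in the control pool, at 103, 57.6 and 50.8 CPM under vehicle and at 150, 118 and 260 CPM under entospletinib. Vehicle pools lay below every entospletinib pool, and the log2 fold was 1.27 (SE 0.21, adjusted p = 0.00050). The same order held in the other cells, with 156, 59.4 and 74.9 CPM against 201, 157 and 471 CPM, and in the tests by DESeq2 Fkbp5 was not called (adjusted p = 0.46). Zbtb16, another gene that glucocorticoids induce, stood at 49.4 CPM in the control pool, 7.76, 6.54 and 10.7 CPM under vehicle and 16.4, 16.04 and 31.6 CPM under entospletinib and was not called (log2 fold 1.27, adjusted p = 0.10). Per1 and Klf9 of the same list had log2 folds of -0.56 and -1.01 and were not called (adjusted p = 0.29 and 0.57). The glucocorticoid list had a median log2 ratio of vehicle to control of -0.46, -1.19 and -0.55 on days 1, 7 and 14.

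The calls that remained under each of 5 other choices of cells were few. They were the members without markers of another lineage, without neutrophil or monocyte counts, without 3 Siglech counts, without 3 cDC2 marker counts and under the ribosomal limit, and 7 genes were called with all 5: Nr4a3, Nr4a2, Rasgef1b, Gm19951 and 4931406G06Rik, which fell, and Fkbp5 and Ccnd3, which rose. Stk38l was called with the other choices and not without the cDC2 marker counts (log2 fold -0.92, adjusted p = 0.051). The names Ccnd3, Stk38l, Gm19951 and 4931406G06Rik were picked after their values were seen. Gm19951 moved alike outside the members, with a day 14 log2 ratio to vehicle of -1.77 in members and -1.77 in the other cells. On that day cDC2 had Gm19951 at 10334 CPM under vehicle and 2997 CPM under entospletinib. Rasgef1b (chr5:99217426-99729065), an exchange factor for RAP GTPases, stood at 122 CPM in the control pool, 252, 158 and 250.4 CPM under vehicle and 96.3, 76.0 and 117 CPM under entospletinib, with no overlap (log2 fold -1.26, SE 0.15, adjusted p = 5.59e-06). In cDC2 it stood at 723 CPM, against 167 CPM in all members, and without the members with cDC2 marker counts its log2 fold was -1.05 (adjusted p = 0.0016). Ccnd3 (chr17:47505051-47599691), a D-type cyclin, stood at 571 CPM in the control pool, 342, 198 and 256 CPM under vehicle and 458, 420 and 717 CPM under entospletinib, again with no overlap (log2 fold 0.92, SE 0.15, adjusted p = 0.00051). The other cells had Ccnd3 at 550, 220 and 419 CPM under vehicle and 459, 437 and 986 CPM under entospletinib.

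**Figure D5:**
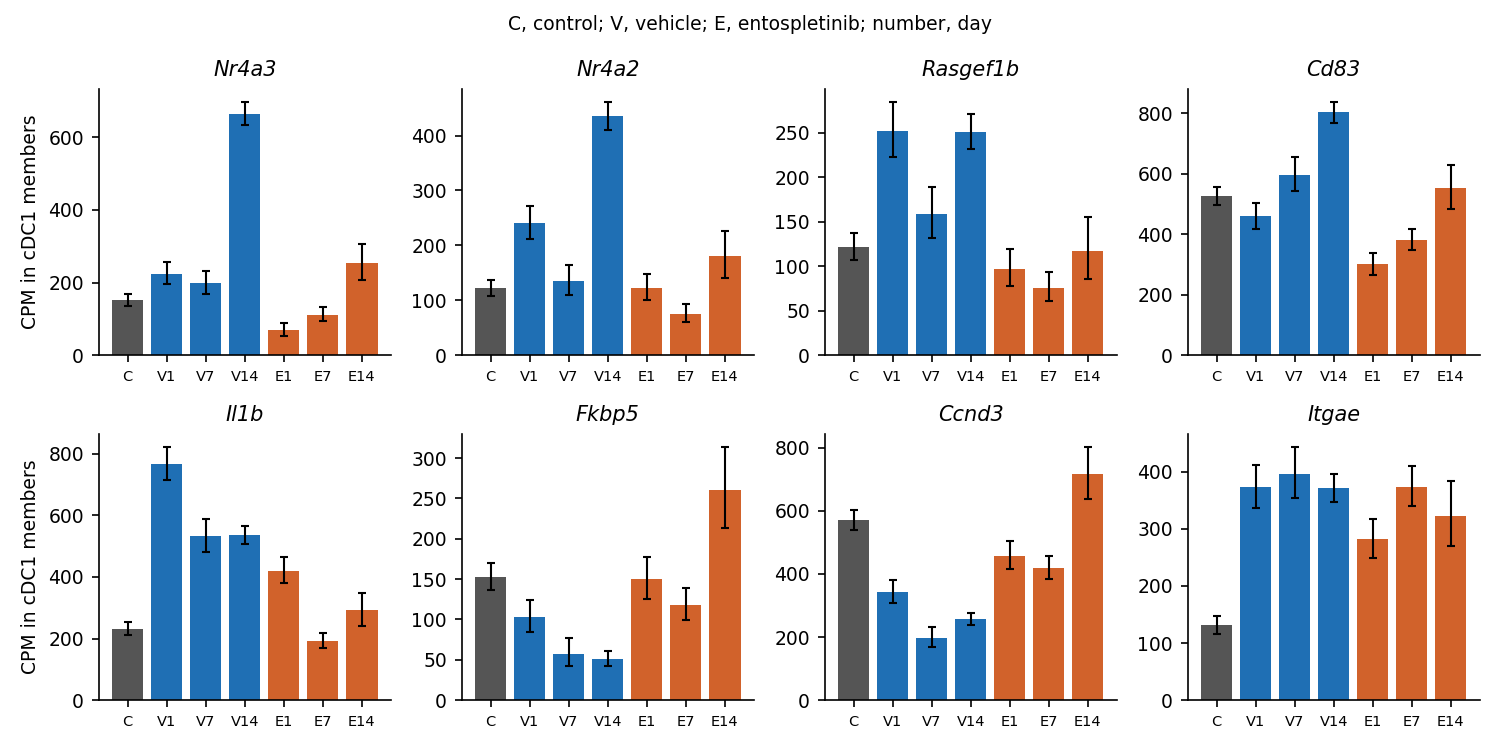
Level of 8 genes in the members of each pool (CPM; bars start at 0; whiskers are 95% exact Poisson intervals for counting error; C control, V vehicle, E entospletinib, with the day). Nr4a3, Nr4a2, Rasgef1b, Cd83 and Il1b are lower and Fkbp5 and Ccnd3 higher with entospletinib on each day, and Itgae is above the control (131 CPM) in all 6 injured pools.

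cDC2, the dendritic cells most like cDC1, served to ask whether the effect of entospletinib differed between the 2 populations. In a joint edgeR fit with an interaction term, 0 of 9830 genes passed (0%), with 443 at an unadjusted p under 0.05, and DESeq2 also called 0, with 129 at an unadjusted p under 0.05. Without day 1 the fit called 43 genes, and 32 with no filter on low counts. Fitted alone, cDC2 had 82 called genes of 11238, and 32 of the 216 genes called in cDC1 were among them. Rasgef1b had a log2 fold of -0.24 (SE 0.18) in cDC2 and Il1b one of -0.11 (SE 0.19); the differences between populations were -1.04 (SE 0.23, adjusted p = 0.55) and -1.02 (SE 0.21, adjusted p = 0.43). Nr4a3 had a log2 fold of -0.57 (SE 0.18) in cDC2, a difference of -0.85 (SE 0.31), and Fkbp5 one of 1.40 (SE 0.32), a difference of -0.06 (SE 0.24).

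Single days were compared without a test, as the number of genes over 2-fold higher or lower among those with at least 20 counts. With entospletinib against vehicle 1.6% were higher and 5.7% lower on day 1, 8.02% and 2.13% on day 7, and 7.36% and 4.59% on day 14. With vehicle against control 6.1% were higher and 3.31% lower on day 1, 2.59% and 8.32% on day 7, and 2.57% and 5.71% on day 14. The list of immediate early genes stood above these shares with vehicle, with 5, 3 and 7 of 22 genes over 2-fold above control on days 1, 7 and 14 and none over 2-fold below. Its median log2 ratio was 0.39, 0.22 and 0.88, beside 0.19, -0.18 and -0.10 for all genes. Costimulatory and coinhibitory ligands had medians of 0.47, 0.40 and 0.43 for vehicle against control, and of -0.57, -0.49 and -0.39 for entospletinib against vehicle. For all genes the medians of entospletinib against vehicle were -0.18, 0.30 and 0.14 on days 1, 7 and 14. Cell cycle genes had 7 of 27 over 2-fold above control on day 7 with vehicle and none below. Mki67, the proliferation marker, stood at 132 CPM in the control pool, 113, 215 and 213 CPM under vehicle and 120, 312 and 214 CPM under entospletinib, and was lowest on day 1 with both treatments.

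The largest single-day differences mostly had the same direction in the rest of the pool, though not always the same size. On day 14 Dusp5 and Csrnp1, both early response genes outside the list, were at 105 and 95.2 CPM under vehicle and 24.3 and 21.9 CPM under entospletinib (10 and 9 counts). On day 7 Tgm2, transglutaminase 2, was at 83.7 CPM under vehicle and 3.38 CPM under entospletinib (4 counts). On day 1 Peak1 was at 4739 CPM under entospletinib against 158 CPM with vehicle, and in the other cells at 4268 against 396 CPM. The 5 largest differences in each direction gave 60 entries over the 6 comparisons, with some genes in more than 1 comparison. Entries of 5 comparisons moved in the same direction in the other cells in 10 of 10 cases, and those of entospletinib against vehicle on day 1 in 8 of 10. Csf1r, the macrophage growth factor receptor, was one of the 2 exceptions, at 14.2 CPM in members with entospletinib and 61.1 CPM with vehicle, against 379 and 366 CPM in the other cells. For entospletinib against vehicle, Vps37b on day 14 had log2 ratios of -2.13 in members and -0.25 in the other cells. Necap2 on day 7 had 2.37 and 0.07, and Fkbp5 on day 14 had 2.36 and 2.65.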

How the data were processed

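Kidney cells of 7 pools were sequenced with the Parse Evercode WT (v2) kit. The authors ran the Parse pipeline with alignment to mm10; the annotation release was not given in the sources used here. The deposited matrix held counts, whole numbers of transcripts with no normalization, and its sums equalled the deposited transcript count for all 120281 barcodes. Samples in the deposit are sublibraries that hold all conditions, so conditions came from the cell table.

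Members and lists were chosen with earlier results of these data known. Counts of members were summed per pool and given as CPM. The 3-day test used edgeR 4.0.16 in R 4.3.3 (glmQLFit, TMM, at least 30 counts, day as a block, Benjamini-Hochberg at 0.05; 2 residual degrees of freedom), and DESeq2 1.42.0 was an alternative. It was tested on simulated data. Shares have exact binomial intervals, ratios exact intervals and CPM exact Poisson ones. Names were drawn from list genes with at least 50 counts, the 10 lowest p-values and 10 largest folds in each direction, the 25 highest ratios to other cells and the 5 largest single-day differences in each direction. Only some of these genes are given. No doublet caller was run; members with at least 3 counts of another lineage were removed as an alternative. Coordinates are from GENCODE M21 (GRCm38), and 147 symbols stood on more than 1 gene row. Python 3.11.15 was used for all else. Fewer cells and less RNA per cell cannot be told apart in shares among barcodes that pass limits on counts.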

Additional observations from a re-analysis of the deposited data

Results flagged for a closer look

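The cDC1 share with entospletinib relative to vehicle was higher in all 8 sublibraries on day 1 (log2 ratio 1.06) and day 7 (0.75) and lower in all 8 on day 14 (-0.86). The days thus moved in opposite directions; the difference between days was not tested, as each day has 1 pool per treatment. The median depth of the members was 1916 counts in the entospletinib pool of day 14 and 4487 counts in the vehicle pool of that day. Among dendritic cells the 3 log2 ratios were 0.21, 0.19 and 0.34. In 35 sets of 8 sublibraries, none had a value far from the others by Dixon's criterion (0.526).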

How the results depend on the processing

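For the share of entospletinib over vehicle, the log2 ratio on day 1 was 0.26 under the ribosomal limit, 0.21 among dendritic cells, 1.81 without members with a neutrophil or monocyte count and 1.37 without those with cDC2 marker counts; on day 7 it was 0.23 under the ribosomal limit and 0.19 among dendritic cells. On day 14 it was -1.29 with at least 3 Clec9a and Xcr1 counts, -1.61 with both genes detected, -1.35 under the ribosomal limit, -0.34 with over 500 genes, -0.18 past 1000 counts and -0.52 without neutrophil or monocyte counts, and it reversed to 0.46 after thinning and to 0.34 among dendritic cells. For vehicle over control, day 1 gave -1.90 with both genes detected, -2.86 thinned, -0.68 among dendritic cells and -3.32 without neutrophil or monocyte counts, and day 7 gave -1.20 thinned. Day 14 gave 0.094 with both genes detected and 0.0023 under the ribosomal limit, both reversed, and -0.42 thinned, -0.81 among dendritic cells and -0.022 past 1000 counts. The 216 calls became 114 with at least 3 Clec9a and Xcr1 counts, 47 with both genes detected, 108 under the ribosomal limit, 89 without other lineages, 11 without neutrophil or monocyte counts, 66 without cDC2 marker counts, 35 with DESeq2, 121 with total counts, 0 after thinning (204 at an unadjusted p under 0.05 of 3164 tested) and 0 without the day block (912 at an unadjusted p under 0.05). Leaving out 1 day gave 125 to 265 calls, the fewest without day 14. Without the Siglech-rich members 211 were called, 181 of them shared. The difference between cDC1 and cDC2 gave 32 calls with no filter and 0 to 43 with 1 day left out, the most without day 1. Single genes reversed as follows: Malt1 to 0.33 (thinned), Itgam to 0.10 and Lrp1 to 0.15 (no neutrophil or monocyte counts), Itgam to 0.0076 (no cDC2 marker counts), Irf8 to 0.0020 (both genes detected), 0.035 (no Siglech-rich members), 0.043 (total counts) and -0.14 to 0.10 with 1 day left out, and Flt3 to 0.0036 (total counts) and -0.21 to 0.11 with 1 day left out. The median CPM of 239 list genes was 55.9, 59.0 and 75.2 in the vehicle pools of days 7 and 14 and the entospletinib pool of day 7 without other lineages. Of 832 values of 48 named genes under alternatives, 606 kept direction and side of the threshold, 207 were no longer called, 9 became called and 10 reversed; the causes were not tested. The choices on neutrophil or monocyte counts, on Siglech, on cDC2 markers and on cells past 1000 counts were made after seeing the data. The replicate numbers in the labels name sublibraries that hold all conditions and pair no pools; the day pairs the vehicle and entospletinib pools and is the block of the 3-day test.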
